A study of Mus musculus with 2 samples.

Results

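The 8 genes described here encode receptors, adaptors and enzymes of the Trem2 and Tyrobp signalling pathway: Trem1, Trem2, Treml4, Cd33, Tyrobp, Hcst, Syk and Plcg2. They were chosen by gene symbol in the GENCODE M21 annotation and all 8 were found by identifier among the 55536 annotated genes of the gene tables. The study measured chromatin-bound RNA in primary macrophages grown from bone marrow of C57BL/6J mice, at 0 minutes of lipid A (100 ng/ml), the lipid part of bacterial endotoxin. After ribosomal RNA depletion, total RNA was sequenced in 2 libraries of this group, from 250 ng of RNA in replicate 1 and 500 ng in replicate 2. Age and sex were not collected. The labels number the libraries as biological replicates but give both the same donor entry, so separate animals are not stated. With 1 group there is no comparison between conditions and no p-value, and the spread between the libraries may be partly technical. RNA input differs with the library, so an effect of input and any other difference between the libraries cannot be told apart.

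Trem receptors are cell-surface proteins of myeloid cells with a short tail that carries no signalling motif of its own. They pair with Tyrobp (also called DAP12), an adaptor whose tail holds an immunoreceptor tyrosine-based activation motif, or ITAM. Src family kinases phosphorylate the ITAM, the kinase Syk binds it, and Syk then acts on phospholipase C gamma 2, the product of Plcg2. Hcst (also called DAP10) is a related adaptor that recruits phosphoinositide 3-kinase instead. In macrophages and microglia Trem2 binds lipids and lipoproteins and is known for its part in uptake of debris and in neurodegenerative disease.

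Levels are given as TPM, estimated reads divided by effective transcript length and scaled to 1000000 per library, so that genes of different length can be compared. Gene-level values are from the gene table unless stated otherwise. Annotated genes held 10933708 and 14168886 rounded expected counts in replicates 1 and 2. All 8 macrophage markers examined reached 1 TPM in both libraries, with a summed level of 705 and 587 TPM, led by Lyz2 and Csf1r. Of 44 markers of 7 other cell types, 6 reached it, against 46.7% of 22028 protein-coding genes. Listed at 0 in both libraries of the gene table were 18 of the 44 markers, and 7394 of the 22028 genes. In that table all 6 natural killer cell markers were at 0, Eomes and Gzma among them. The gene table's summed levels were 1.98 and 0.82 TPM for neutrophil markers, led by Mmp8 and S100a9, and 0.26 and 0.39 TPM for B cell markers, led by Cd79a and Ms4a1. They were 0.73 and 0.18 TPM for T cell markers, led by Zap70 and Cd8a, and 2.28 and 2.45 TPM for dendritic cell markers, led by Zbtb46 and Clec9a. They were higher for megakaryocyte markers (29.9 and 17.6 TPM), led by Treml1 and Pf4. For osteoclast markers they were 34.8 and 26.4 TPM, led by Atp6v0d2 and Ctsk, with Calcr at 0. Atp6v0d2 alone stood at 33.6 and 24.4 TPM, and no other osteoclast marker reached 1 TPM in both libraries. The second transcript table, made from the reads without the alignment, gave more signal for several of these lists. Of the 44 markers, 14 reached 1 TPM in it, against 55.7% of protein-coding genes. The summed levels in it were 12.4 and 15.8 TPM for T cell markers, where 3 of 6 reached 1 TPM and Cd3d led with 8.34 and 10.8 TPM, and 1.16 and 1.58 TPM for natural killer cell markers, with Eomes at 40.3 and 57.3 counts. They were 2.99 and 3.61 TPM for neutrophil, 3.12 and 3.90 TPM for B cell and 5.67 and 7.51 TPM for dendritic cell markers. Megakaryocyte markers summed to 25.1 and 29.0 TPM there, and osteoclast markers to 54.7 and 63.9 TPM. Of the osteoclast markers, Atp6v0d2 gave 49.5 and 55.8 TPM there, and Ocstamp, at 0 in the gene table, 2.25 and 3.33 TPM. The part of other cell types in the levels of the 8 genes was not tested.

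Of the 8 genes, 6 reached 1 TPM in both libraries, against a background of 46.7% of 22028 protein-coding genes. The second transcript table also gave 6 members, against 55.7% of protein-coding genes. With a minimum of 10 expected counts instead, 5 members were detected and Hcst was not. The share of protein-coding genes under that rule was not computed. The median level of the 8 genes was 18.9 TPM in replicate 1 and 21.9 TPM in replicate 2, and that of all protein-coding genes was 0.74 and 0.67 TPM. The kinase gene Syk was the highest and the receptor gene Trem2 the next. Tyrobp, Plcg2 and Cd33 lay between 11.97 and 27.5 TPM, Hcst at 2.97 and 2.67 TPM, and Treml4 and Trem1 rested on 0 or 1 read per library.

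**Figure D1:**
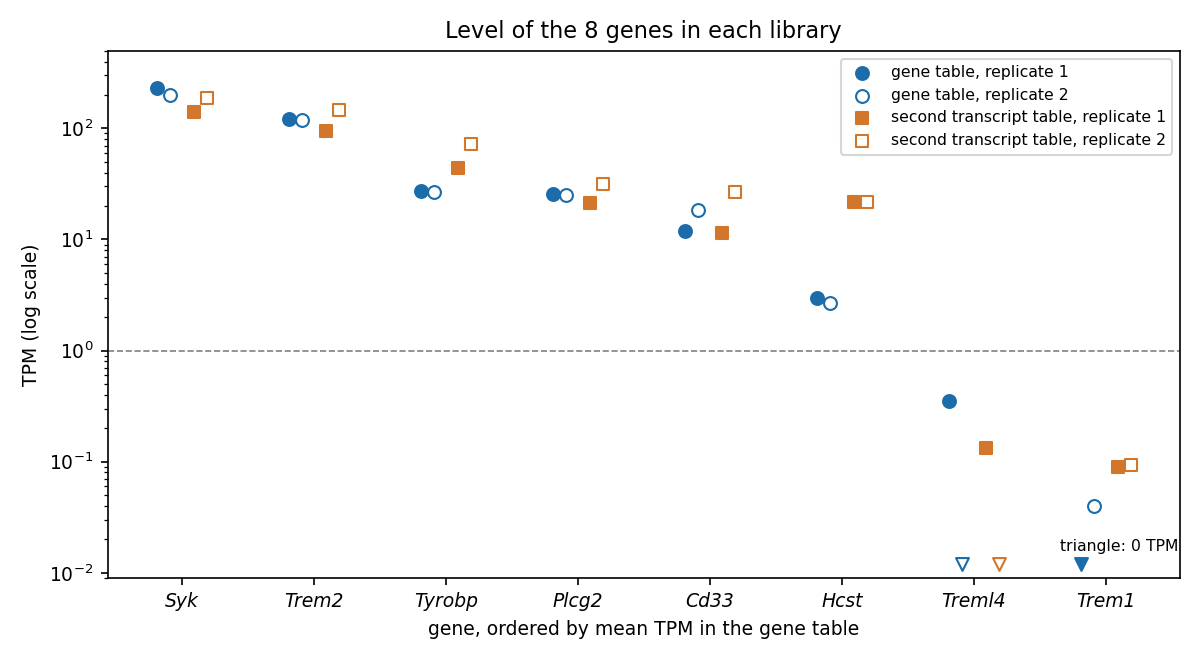
TPM of each gene (log axis) in replicate 1 (filled) and replicate 2 (open), from the gene table (circles) and the second transcript table (squares). The dashed line is 1 TPM. Syk and Trem2 lie above 90 TPM in all 4 values, and Trem1 and Treml4 lie below 1 TPM in all 4.

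Among the receptors, Trem2 was measured at 121 TPM in replicate 1 and 120 TPM in replicate 2, or 120.5 ± 0.735 TPM (SD, n = 2). These values rested on 4223 and 6710 expected counts. Trem2 (ENSMUSG00000023992.14) lies on chromosome 17 of mm10, 48346401 to 48354147, on the plus strand, and no other annotated gene overlaps it. It ranked 298 among protein-coding genes by mean TPM. In gene table TPM the libraries were close to each other, with the SD under 1% of the mean.

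Most Trem2 reads were assigned to a transcript annotated as retained intron. Trem2-203 held 3905 of the gene's counts in replicate 1 and 6326 in replicate 2, or 93.4 ± 1.27% of them (n = 2). The coding transcripts Trem2-201 and Trem2-202 together held 7.42% and 5.72%. Per length, Trem2-203 stood at 83.0 and 89.8 TPM, Trem2-202 at 24.8 and 22.3 TPM, and Trem2-201 at 11.8 and 7.85 TPM. Both libraries gave the same order of the 3 transcripts. Over 5042 protein-coding genes with a retained-intron transcript and at least 100 counts in each library, the median share of counts on such transcripts was 31.1%, and 30.5% of these genes had a share of 50% or more. The share of Trem2 was above that of 98.3% of them.

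The structure of Trem2-203 shows what such a read can be. Its 4784 bases hold 1049 bases shared with exons of the coding transcripts, 1861 bases of the first intron, and 1874 bases beyond the 3′ end of the coding transcripts. The other introns of the coding transcripts are spliced out of it. The tables give no count per base, so the reads in the intron and the reads in the 3′ extension cannot be told apart. The first intron separates the exon that begins the coding sequence from the exon that follows it, and the boundary sequences below show the unspliced and the spliced form. Intron bases are in capitals and coding exon bases in lower case, from the GENCODE M21 transcript sequences on mm10, plus strand. The spliced form joins the lower-case parts of the first and second lines.
Trem2-203, first intron, 5′ boundary, chr17:48346566-48346625: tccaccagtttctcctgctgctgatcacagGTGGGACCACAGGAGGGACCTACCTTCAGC
Trem2-203, first intron, 3′ boundary, chr17:48348427-48348486: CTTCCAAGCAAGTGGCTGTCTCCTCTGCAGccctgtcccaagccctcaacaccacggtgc
Trem2-201, spliced junction: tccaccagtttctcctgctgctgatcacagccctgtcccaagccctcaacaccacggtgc

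**Figure D2:**
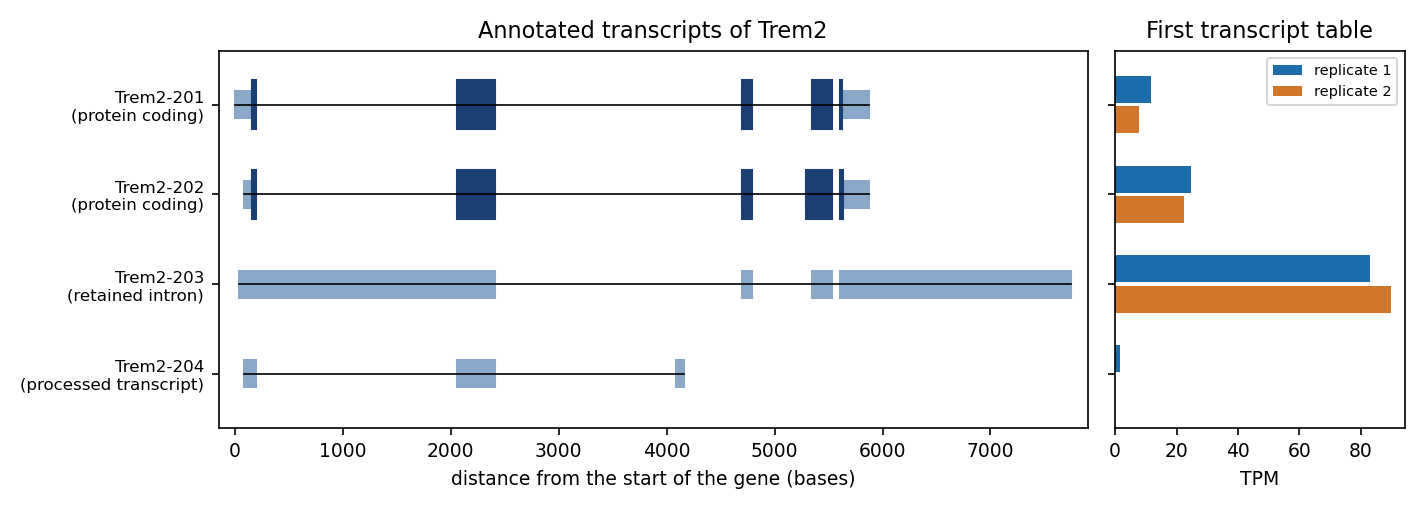
Left, the 4 annotated Trem2 transcripts by distance from the start of the gene in bases (thick dark boxes, coding sequence; light boxes, other exon parts; lines, introns). Right, the TPM of each transcript in replicates 1 and 2 from the first transcript table. Trem2-203, which covers the first intron and a longer 3′ end, is the highest in both libraries at 83.0 and 89.8 TPM.

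The second transcript table gave Trem2 94.97 TPM in replicate 1 and 146 TPM in replicate 2, a mean of 121 TPM. It assigned 84.7% and 87.4% of Trem2 counts, and 45.2% and 49.1% of Trem2 TPM, to Trem2-203. It also gave 17.9 and 30.7 TPM to Trem2-204, a short non-coding transcript that held 4.29 and 0 counts in the first table. Over detected protein-coding genes, the median ratio of TPM in the second table to TPM in the gene table was 0.906 in replicate 1 and 1.43 in replicate 2. Trem2 had ratios of 0.785 and 1.22, so its libraries moved apart in the second table in the direction that most genes did.

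The Trem genes lie side by side on the plus strand of chromosome 17, and their levels differed widely. Trem1 (ENSMUSG00000042265.13, 48232768 to 48246924), a receptor gene known for amplifying inflammatory responses, had 0 counts in replicate 1 and 1 count in replicate 2. A 0 is compatible with as many as 3 counts through counting error, which at the effective length of Trem1 is 0.126 TPM in replicate 1. The single count fell on Trem1-202. Treml4 (ENSMUSG00000051682.15, 48264295 to 48275360), a Trem-like receptor gene, had 1 count, on the retained-intron transcript Treml4-204, and 0 counts. For Treml4, 3 counts are 1.06 TPM in replicate 1 and 0.282 TPM in replicate 2. The second transcript table gave Trem1 6.01 counts in each library and Treml4 1 and 0. Neither gene was detectable at this depth, and their order is not resolved.

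Between and beside them, Trem3 had 0 and 1 counts, and Treml2, another Trem-like receptor gene, stood at 1.55 and 1.44 TPM. B430306N03Rik, an unnamed protein-coding gene between Treml2 and Trem2, stood at 17.9 and 13.3 TPM. Treml1, a receptor gene best known from platelets and megakaryocytes, begins 5768 bases after the end of Trem2 and stood at 12.4 and 10.7 TPM. It rested on 122 and 154 counts. Trem2 exceeded every other protein-coding gene from Trem1 to Treml1 in both libraries, and the values of neighbouring Treml1 and B430306N03Rik did not overlap with its own. Megakaryocyte markers other than Treml1 were also present, with Pf4, a platelet chemokine gene, at 12.0 and 3.5 TPM on 28 and 12 counts, and whether cells of that type took part in the Treml1 value was not tested.

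Cd33 (ENSMUSG00000004609.11, chromosome 7, 43524216 to 43544428, minus strand) encodes a sialic acid-binding receptor of the Siglec family. It stood at 12.0 TPM in replicate 1 and 18.4 TPM in replicate 2 (15.2 ± 4.54 TPM, n = 2), on 450 and 1180 counts. Cd33 was the member that differed most between the libraries. After scaling of the libraries with TMM, a scaling that takes most genes as equal, it was 1.85-fold higher in replicate 2, a log2 ratio of 0.89 with a counting interval of 0.73 to 1.05. This ratio was larger in size than that of 99.8% of the 1794 genes with counts within 1.5-fold of its own. Its libraries thus differed by more than counting error. After the same scaling, so did those of Trem2 (log2 ratio 0.17, interval 0.11 to 0.22) and Syk (-0.11, interval -0.16 to -0.07). These ratios were larger in size than those of only 68.8% and 44.5% of the genes with counts within 1.5-fold of their own. They also turned on the scaling. By total counts they were 0.29 for Trem2 and 0.015 for Syk, and by deposited TPM -0.012 and -0.19. For Cd33 the log2 ratio was 0.57 by counts of the second transcript table and 0.62 by deposited TPM.

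Cd33 reads were assigned mainly to 2 transcripts. The coding transcript Cd33-203, whose 3′ end reaches 3779 bases further than that of Cd33-201, held 76.8% and 79.4% of the counts, at 6.08 and 11.0 TPM. Cd33-204, a retained-intron transcript that covers 1686 of the 1732 bases of an intron present in 4 coding transcripts, held 22.7% and 20.2%, at 4.61 and 7.22 TPM. Both had more counts in replicate 2, 937 against 346 for Cd33-203 and 239 against 102 for Cd33-204. The boundary of the intron in Cd33-204 is printed in capitals, coding exon bases in lower case, on the minus strand.
Cd33-204, 5′ boundary of the retained intron, chr7:43532008-43532067: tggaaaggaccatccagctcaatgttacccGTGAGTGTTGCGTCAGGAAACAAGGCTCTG

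The adaptor gene Tyrobp (ENSMUSG00000030579.10, chromosome 7, 30413760 to 30417585, plus strand) stood at 27.5 TPM in replicate 1 and 27.01 TPM in replicate 2 (27.3 ± 0.346 TPM, n = 2). Both libraries gave nearly the same level, and 89.0% of protein-coding genes were lower. The gene is short, so these levels rested on 100 and 144 counts, and the exact Poisson interval ran from 81.4 to 122 counts in replicate 1 and from 121 to 170 counts in replicate 2. Counting error here exceeds the spread between libraries. Coding transcripts held 98.5% and 99.0% of its counts, and no retained-intron transcript of Tyrobp is annotated. Tyrobp-202 held 81.3% and 72.4% of the counts and Tyrobp-201 17.2% and 26.6%. The second transcript table reversed that order, with 28.0% and 31.7% on Tyrobp-202 and 60.1% and 59.9% on Tyrobp-201. Only 28 bases of Tyrobp-202 and 0 of Tyrobp-201 lie in no other transcript of the gene, so the split between them is uncertain.

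Hcst (ENSMUSG00000064109.8, chromosome 7, 30417712 to 30419854, minus strand) lies 126 bases from the end of Tyrobp, on the other strand. It stood at 2.97 and 2.67 TPM (2.82 ± 0.212 TPM, n = 2), on 6 and 8 counts, with exact Poisson intervals of 2.20 to 13.1 and 3.45 to 15.8 counts. The retained-intron transcript Hcst-202 held 4.85 and 5 of them, and the coding transcript Hcst-201 held 1.15 and 3. Since 3 counts of Hcst are 1.48 TPM in replicate 1, its level lies near the threshold of 1 TPM. In its first 30 intron bases, in capitals, and the 24 coding bases before them, on the minus strand, Hcst-202 reads as follows.
Hcst-202, 5′ boundary of the intron, chr7:30418589-30418642: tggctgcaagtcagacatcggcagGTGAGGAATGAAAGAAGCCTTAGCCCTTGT

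Both adaptor genes were higher in the second transcript table. Hcst had 109 counts in each library there, 18.2 and 13.6 times the gene table's counts, and stood at 21.9 and 21.7 TPM. Tyrobp had 396 and 613 counts, 3.96 and 4.26 times as many, and stood at 44.1 and 72.0 TPM. The median ratio of counts between these tables was 1.75 in both libraries over detected protein-coding genes, and 2.35 and 2.83 over 127 of them whose longest transcript is under 700 bases. Hcst was at least 2-fold higher in TPM in both libraries, as were 6.84% of detected protein-coding genes, while 0.214% were as much lower and no detected member was. The other 5 detected members were not, Tyrobp with ratios of 1.60 and 2.67. Between both tables, the level of Hcst ranged from 2.67 to 21.9 TPM. The strandedness of the libraries was not stated by the labels or notes, so reads of Tyrobp and Hcst that reach past their ends could not be separated by strand.

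The kinase gene Syk (ENSMUSG00000021457.14, chromosome 13, 52583173 to 52648792, plus strand) stood at 230 TPM in replicate 1 and 202 TPM in replicate 2 (216 ± 20.0 TPM, n = 2), on 8033 and 10518 counts. It ranked 114 among protein-coding genes. Replicate 1 was the higher, while the second transcript table gave 141 and 189 TPM. Coding transcripts held 68.9% of Syk counts in each library, Syk-203 alone 52.0% and 54.5%. The retained-intron transcripts Syk-204 and Syk-205 held 31.1 ± 0.0165% together, beside the median of 31.1% over the 5042 genes.

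The retained-intron transcripts of Syk both end inside an intron. Syk-204, at 93.9 and 85.2 TPM the highest Syk transcript per length, has 6 exons, and its last exon runs 1063 bases into a following intron. Syk-205 covers a whole intron of 1042 bases and 1230 bases of the next, at 26.6 and 21.4 TPM. Their intron boundaries show where these reads would leave the coding sequence, with intron bases in capitals, plus strand. All 6 of the 5′ boundaries found in retained-intron transcripts of the 8 genes begin with GT, the usual start of an intron.
Syk-204, 5′ boundary of its last intron part, chr13:52623247-52623306: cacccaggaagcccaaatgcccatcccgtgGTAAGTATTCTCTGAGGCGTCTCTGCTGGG
Syk-205, 5′ boundary of the intron it covers whole, chr13:52611223-52611282: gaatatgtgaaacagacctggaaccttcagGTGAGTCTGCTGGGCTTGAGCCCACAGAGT

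Plcg2 (ENSMUSG00000034330.10, chromosome 8, 117498291 to 117635142, plus strand) stood at 25.8 and 25.3 TPM (25.55 ± 0.297 TPM, n = 2), on 1083 and 1594 counts. Its 136852 bases hold 1 annotated transcript of 33 exons, so no share on other classes could be measured. By gene-level TPM, Plcg2 was 8.92-fold and 7.95-fold lower than Syk in replicates 1 and 2. On coding transcripts alone, it was 4.25-fold and 3.75-fold lower than Syk in the first transcript table. In the second transcript table it was 3.4003-fold and 2.961-fold lower on coding transcripts. Tyrobp and Plcg2 differed by 1.07-fold in both libraries, less than the counting error of Tyrobp.

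**Figure D3:**
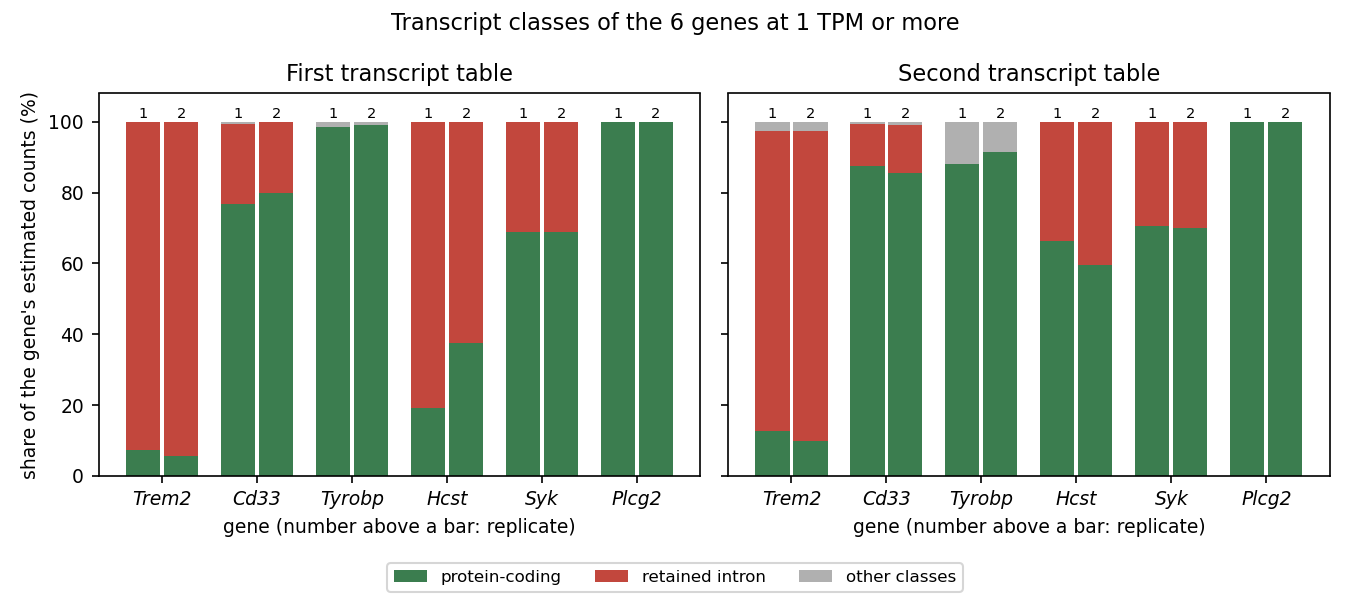
Share of each gene's estimated counts on protein-coding, retained-intron and other transcripts in percent, for the 6 genes at 1 TPM or more, with 1 bar per replicate. Left, first transcript table. Right, second transcript table. Trem2 counts are mostly on its retained-intron transcript in all 4 bars, and the retained-intron share of Hcst differs between the tables.

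Restricted to coding transcripts, the order of receptor and adaptor was closer. Trem2 exceeded Tyrobp by 4.401-fold and 4.44-fold in gene-level TPM. On coding transcripts alone, Trem2 stood at 36.6 and 30.2 TPM and Tyrobp at 27.1 and 26.7 TPM, ratios of 1.35 and 1.13. The counting interval of Tyrobp reached 118% of its count in replicate 2, so the 1.13 lies within its counting error. In the second transcript table the gene-level ratios were 2.15 and 2.03, and on coding transcripts Trem2 was the lower, with ratios of 0.878 and 0.663. Which of the 2 genes is higher on coding transcripts turned with the table. Syk remained above Tyrobp on coding transcripts in both tables, at 4.04-fold and 3.55-fold in the first and 1.85-fold and 1.43-fold in the second.

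The order by gene-level TPM was Syk, Trem2, Tyrobp, Plcg2, Cd33, Hcst, Treml4 and Trem1. The values of neighbours did not overlap between the libraries except for Treml4 and Trem1. Tyrobp and Plcg2 differed by only 1.07-fold, less than the counting error of Tyrobp, so these values do not resolve their order. The second transcript table kept Trem2 above Tyrobp, Tyrobp above Plcg2 and Hcst above Treml4 with no overlap. There the ranges of Syk and Trem2, of Plcg2 and Cd33, and of Cd33 and Hcst overlapped. Within each library of that table, Syk was still above Trem2 and Plcg2 above Cd33, while Cd33 was below Hcst in replicate 1 and above it in replicate 2.

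Between the libraries, the members other than Cd33 differed by less than 1.5-fold where a ratio could be had. For the 5 members whose counts averaged 10 or more, the log2 ratios of replicate 2 over replicate 1 were 0.17 for Trem2, 0.06 for Plcg2, 0.02 for Tyrobp, -0.11 for Syk and 0.89 for Cd33. None of the 5 passed 2-fold, and 2.85% of 15193 genes with as many counts did (1.34% were higher in replicate 2). With libraries scaled by their total counts, 1 of the 5, Cd33, passed it, and the share over all genes was not computed for that scaling. The median TMM-scaled log2 ratio of the 5 was 0.06, beside 0.00 over all genes tested. Trem1, Treml4 and Hcst had too few counts for a ratio.

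**Figure D4:**
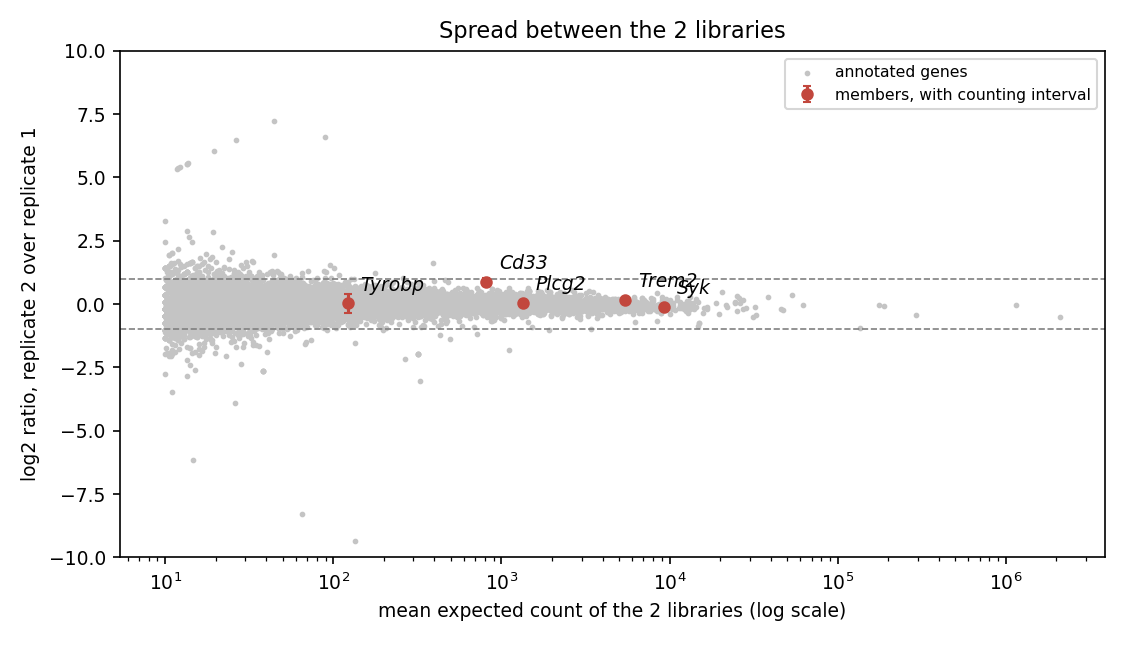
Log2 ratio of replicate 2 over replicate 1 (TMM-scaled counts) against the mean expected count (log axis), for annotated genes whose counts averaged 10 or more (grey) and 5 members (red, bars give the 95% counting interval). Dashed lines mark 2-fold. Cd33 lies at 0.89, apart from most genes of its count, and the other 4 members lie between -0.11 and 0.17.

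The rest of the pathway was examined in 6 lists of 81 genes. Of these, 54 reached 1 TPM in both libraries of the gene table and 63 did in the second transcript table. The list of partner receptors holds receptors that pair with Tyrobp, Hcst or the related adaptor Fcer1g, and also the Trem-like receptors Treml1, whose own tail carries an inhibitory motif, and Treml2, for which such pairing is not established. Of its 15 genes, 6 reached 1 TPM in the gene table, where the list's median was 0.670 ± 0.184 TPM (n = 2 libraries). By the second transcript table, 10 of 15 did, and the medians were 1.24 and 2.11 TPM, so that whether most of the list is detected turned with the table. The highest were Cd300lb, an activating receptor of the CD300 family (32.3 and 29.2 TPM), Treml1, and Cd300ld (5.74 and 5.4 TPM). By mean gene table TPM, Trem3 and Ncr1, a natural killer cell receptor gene, were the lowest. Ncr1 had 0 counts, also in the second transcript table, and the place of Trem3 rests on 1 count. By gene-level TPM, Trem2 was higher than each of these 15 genes in both libraries. The coding transcripts of Trem2 alone stood at 36.6 and 30.2 TPM, close to the gene-level values of Cd300lb. In the second transcript table they stood at 34.1 and 43.7 TPM, and Cd300lb at gene level at 65.3 and 82.0 TPM. Levels on coding transcripts were not compared for these 15 genes. Several of them, Sirpb1a, Sirpb1b, Sirpb1c, Pilrb1 and Pilrb2, are near-identical copies, so their single values are uncertain.

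Of 7 other genes that encode ITAM-bearing adaptors, 1 was detected in the gene table and 3 in the second transcript table. Fcer1g, the shared gamma chain of Fc receptors, stood at 39.3 and 41.9 TPM, and Tyrobp was at 0.699 and 0.644 of its level. On coding transcripts alone, Tyrobp was at 0.919 and 0.909 of Fcer1g, differences within the counting error of Tyrobp. In the second transcript table Tyrobp was at 1.05 and 0.966 of Fcer1g on coding transcripts. Cd247, the zeta chain of T and natural killer cells, was next at 1.25 and 0.56 TPM, and the T cell receptor chains Cd3e and Cd3g were listed at 0, although the second transcript table gave Cd3g 1.10 and 1.23 TPM on 61.2 and 66.4 counts. Another such chain, Cd3d, had 1 and 0 counts in the gene table, and 282 and 351 counts in the second transcript table.

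Of 9 genes for Src family kinases and their regulator Csk, 4 were detected in the gene table and 6 in the second transcript table. Lyn was at 74.5 and 71.0 TPM, and Csk, which restrains the others, at 72.9 and 61.1 TPM. Blk and the T cell kinase gene Lck were listed at 0. Scaffolds and effectors after Syk were detected in 22 of 24 cases in both tables, with a gene table median of 40.4 ± 6.47 TPM. Prkcd, a protein kinase C gene, stood at 267 and 274 TPM, Lat2, an adaptor at the membrane, at 217 and 208 TPM, and Pik3ap1, an adaptor of phosphoinositide 3-kinase, at 127 and 106 TPM. The T cell kinase gene Zap70, the paralog of Syk, stood at 0.53 and 0.12 TPM and did not reach 1 TPM. Syk lay between Prkcd and Pik3ap1 in both libraries, and Plcg2 (25.8 and 25.3 TPM) below the median of the list.

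Brakes of ITAM signalling were detected in 13 of 16 cases in the gene table (median 16.7 ± 2.74 TPM) and in 14 in the second transcript table. Sirpa, the inhibitory receptor for CD47, stood at 575 and 539 TPM, higher than any of the 8 members. Pirb, a paired inhibitory receptor gene with related copies, stood at 252 and 273 TPM, and Inpp5d, the phosphatase SHIP1 that removes a product of phosphoinositide 3-kinase, at 181 and 194 TPM. Of the Siglec genes that are relatives of Cd33, Siglece (0.12 and 0.13 TPM) and Siglecf (0.04 and 0.05 TPM) had the lowest mean gene table TPM of this list. Siglecg was below both in replicate 2, at 0.03 TPM, and the second transcript table gave Siglece 1.67 and 2.27 TPM. Of 10 genes for Trem2 ligands and for the enzymes that shed and cleave Trem2, 8 were detected in both tables (gene table median 10.8 ± 0.704 TPM). Apoe, which encodes an apolipoprotein bound by Trem2, stood at 115 and 68.4 TPM. Ncstn, a gamma-secretase subunit, was at 43.8 and 42.1 TPM, and Adam17, a sheddase, at 31.7 and 26.4 TPM. The ligand genes Clu and Apob had at most 1 count per library in the gene table. The gene table counts of each list stand beside the 46.7% of protein-coding genes detected there and their median of 0.705 ± 0.0495 TPM. Those of the second transcript table stand beside 55.7% and medians of 1.71 and 2.51 TPM. The lists were chosen with macrophages in mind, so nothing particular to a list is read from them.

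**Figure D5:**
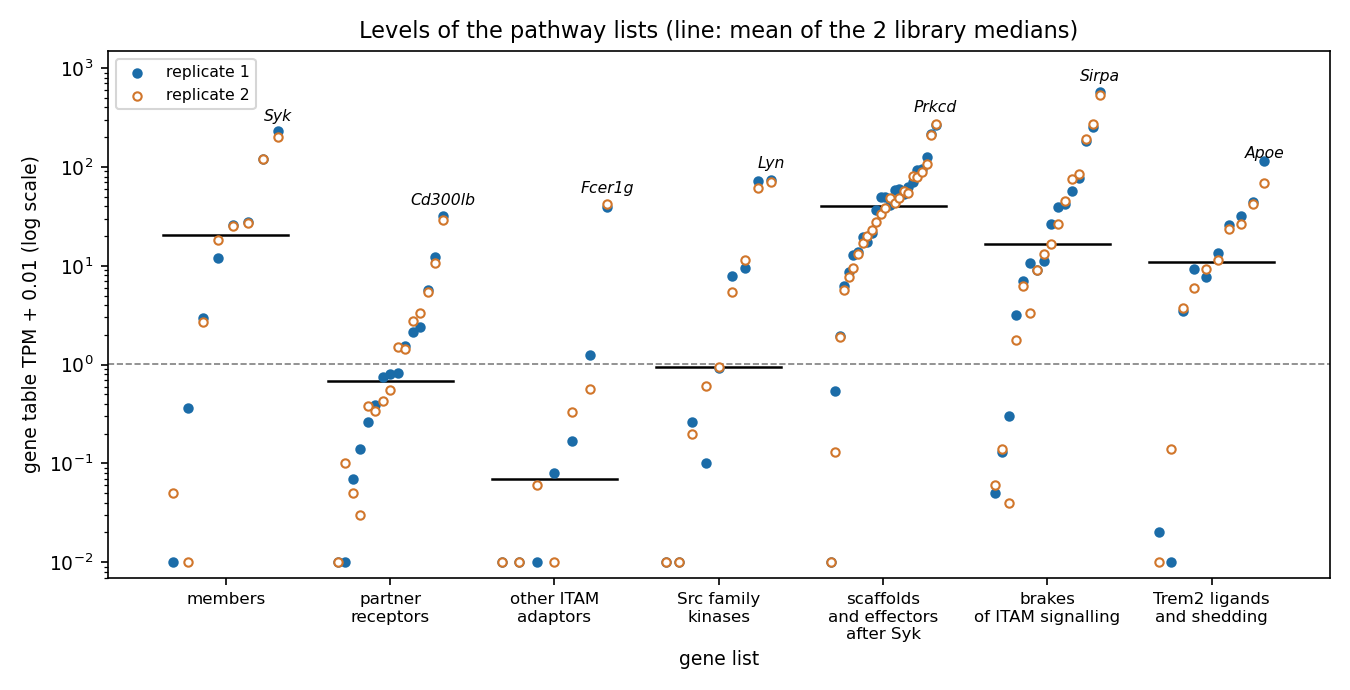
Gene table TPM plus 0.01 (log axis) of each gene of the 8 members and the 6 pathway lists, in replicate 1 (filled) and replicate 2 (open), ordered by mean level within a list. Black lines are the mean of the 2 library medians, the dashed line is 1 TPM, and the highest gene is named. Genes after Syk lie mostly above 1 TPM, and in the values shown, 9 of 15 partner receptors and 6 of 7 other adaptors do not reach it in both libraries.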

How the data were processed

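Notes deposited beside the tables say that the authors derived the gene values and the first transcript table from an alignment to transcripts, and the second transcript table from reads and a transcript index (assembly mm10, GENCODE M21). The labels and notes name no aligner, quantifier or version. The deposited expected counts are estimates and need not be whole. TPM and posterior mean TPM were computed by the authors, per the file headers. The phiX control (0.338% and 0.27% of gene table counts) was left out of library sizes.

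Annotated genes held 10933708 and 14168886 rounded counts, so that 3 counts were 0.274 and 0.212 RPM. Intervals are 95% exact Poisson for counts and exact binomial for ratios. Like the floors they cover counting error only, because without molecular identifiers reads are not independent molecules. Rounded counts were scaled with TMM (edgeR 4.0.16) or, as an alternative, size factors (DESeq2 1.42.0), under R 4.3.3. Log2 ratios are of scaled counts plus 0.5. The ratio step was tested on simulated data. Other steps ran in Python 3.11.15.

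The members, the lists and the rule for names were chosen with earlier results of these data known. The rule took all 8 members, the 3 highest and 2 lowest genes of each pathway list, the 2 highest markers of each marker list and every transcript with at least 10% of a member's counts in either library. Some genes that the rule took are not reported here. Calcr, Ocstamp, Cd3d, Siglecg, Treml2, B430306N03Rik, Sirpb1a, Sirpb1b, Sirpb1c, Pilrb1, Pilrb2, Gp1ba, Itga2b, Gp9, Ppbp and the transcripts Trem2-201, Trem2-202, Trem2-204, Cd33-201 and Syk-205 were named outside it after their values were seen. Sequences are from GENCODE M21 transcripts. Likeness of pattern between genes was not computed, since there are 2 libraries of 1 group.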

Additional observations from a re-analysis of the deposited data

How the results depend on the processing

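No paired analysis was possible because there is 1 group. Of the alternatives run, those that gave a value outside 1 SD of the reported value, or outside its counting interval for a log2 ratio, are given here. In the second transcript table the mean level was 0.0919 TPM for Trem1, 58.1 for Tyrobp, 21.8 for Hcst, 165 for Syk and 26.5 for Plcg2. Posterior mean TPM was 0.08 for Trem1, 110.5 for Trem2, 0.985 for Treml4, 25.5 for Tyrobp, 3.86 for Hcst and 23.2 for Plcg2. Rescaling TPM over protein-coding genes raises every level by construction, to 0.0812 for Trem1, 474 for Trem2, 0.666 for Treml4, 60.1 for Cd33, 107 for Tyrobp, 11.1 for Hcst, 846 for Syk and 100.4 for Plcg2. RPM values, which are not per length, were 429.9 for Trem2, 62.2 for Cd33, 9.65 for Tyrobp, 0.557 for Hcst, 739 for Syk and 106 for Plcg2. Scaling by total counts gave log2 ratios of 0.29 for Trem2, 0.015 for Syk and 0.18 for Plcg2. With it 1 member, Cd33, passed 2-fold, and the share over all genes was not computed. The log2 library factor is 0.374 there and 0.50 with TMM. Ratios of deposited TPM were -0.012 for Trem2, 0.62 for Cd33 and -0.19 for Syk, and the second table gave 0.57 for Cd33. Retained-intron shares in the second table were 86.1% for Trem2, 12.8% for Cd33, 37.0% for Hcst and 29.7% for Syk, and in the first table by TPM they were 71.7% for Trem2, 38.9% for Cd33 and 52.7% for Syk. Apart from the effects of rescaling and of length, the cause was not tested. Members detected numbered 6 without either library, at 0.5 or 2 TPM and by posterior mean TPM, and 5 with a minimum of 10 expected counts, where Hcst was lost. Pathway genes detected numbered 58 at 0.5 TPM, 51 at 2 TPM and 63 in the second table. Shares over all protein-coding genes were computed only for 1 TPM in both libraries, by the gene table and the second table. Trem1, Treml4 and Hcst rest on at most 8 counts per library in the gene table, and depth limits what can be said of them.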
